A study of Mus musculus with 9 samples.

Results

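The imprinted Dlk1, Meg3 and Rian domain of the mouse was taken as the 450 kb of chromosome 12 from 110650001 to 111100000 in mm9, the genome build of the deposited tables. Its members were the fragments left by the restriction enzyme StyI whose midpoint lies in this interval, 738 of 3053721 fragments in the genome. Membership was set by position, and the choice was made with earlier results of these data known. The 300 kb on either side served as flanks and held 405 fragments upstream and 478 downstream. Approximate positions were known for Dlk1, near 110690000, and for Meg3, near 110780000. No mm9 annotation was used here, so Rtl1, Rian and Mirg could only be given as the stretch after Meg3.

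All 9 libraries came from 1 cell line, E14Tg2a, embryonic stem cells of the 129P2 strain kept undifferentiated with LIF on gelatin, with no genetic change or treatment named in the labels. There were 3 HRS libraries, 3 Loop libraries and 3 libraries of genomic DNA used as input, the last titled D0, D12 and D21. What these titles mean is not given in the sources used here and they number no replicates. The inputs were treated as 3 replicates, in that order. Every p-value against input rests on that. High-salt recovered sequences (HRS) are the DNA that stays with insoluble nuclear material after high-salt treatment of nuclei and cutting, and the Loop fraction is the DNA let go. The labels number the HRS and Loop libraries as replicates without saying that each was a separate culture. The p-values below thus reflect only how these libraries vary, which may be technical. A line from 1 inbred strain gives reads that do not tell the maternal from the paternal copy, and no RNA or DNA methylation was measured, so neither imprinting nor the labelled cell type could be checked against the data.

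Dlk1 encodes a membrane protein related to Notch ligands and is expressed from the paternal chromosome. From the maternal chromosome come long noncoding RNAs: Meg3, then Rian, whose introns carry clustered C/D box snoRNAs, and Mirg, which hosts a large microRNA cluster, while Rtl1 is a paternally expressed gene derived from a retrotransposon with maternal transcripts antisense to it. A methylated region between Dlk1 and Meg3 controls imprinting of the whole cluster, and in cultured stem cells the maternal transcripts are a known mark of developmental potential. In RefSeq's GRCm38.p6 annotation, used for names and order only, the members follow each other as Dlk1, Meg3, Rtl1, Rian and Mirg, and the 86 genes from Meg3 to the end of Mirg comprise 60 microRNAs, 19 snoRNAs, 4 long noncoding RNAs, 2 pseudogenes and 1 protein-coding gene. The promoter entries of that build lie 88.2 kb (Meg3), 151 kb (Rian) and 282 kb (Mirg) after that of Dlk1. These distances are of another build and were not carried over to mm9.

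Every count below is the number of sequence tags at a StyI fragment, so the enzyme's sites (CCNNGG with A or T at each N, a motif that reads the same on both strands and was searched on both) set where the domain can be read. The promoters of 4 of the 5 members were found in RefSeq's GRCm38.p6 table, and 1 entry of each is shown to let a reader see where the cut sites fall at the starts of these transcripts. Each is 300 bases, 250 before the annotated start and 50 after it, plus strand, 5′ to 3′, with StyI sites in capitals. They span 12:109452573-109452872 for Dlk1, 12:109540746-109541045 for Meg3, 12:109603695-109603994 for Rian and 12:109734731-109735030 for Mirg.
Dlk1: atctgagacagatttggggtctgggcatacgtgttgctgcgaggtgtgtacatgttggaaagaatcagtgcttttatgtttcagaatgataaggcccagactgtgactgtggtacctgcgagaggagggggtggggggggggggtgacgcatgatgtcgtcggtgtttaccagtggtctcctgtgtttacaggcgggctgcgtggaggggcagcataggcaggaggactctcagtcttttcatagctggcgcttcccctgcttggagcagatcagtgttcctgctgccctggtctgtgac
Meg3: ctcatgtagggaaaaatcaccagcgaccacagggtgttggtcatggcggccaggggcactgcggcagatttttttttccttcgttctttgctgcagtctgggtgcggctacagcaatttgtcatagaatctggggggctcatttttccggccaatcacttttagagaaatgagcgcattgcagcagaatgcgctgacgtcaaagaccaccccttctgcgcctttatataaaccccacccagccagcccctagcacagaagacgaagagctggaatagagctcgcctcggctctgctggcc
Rian: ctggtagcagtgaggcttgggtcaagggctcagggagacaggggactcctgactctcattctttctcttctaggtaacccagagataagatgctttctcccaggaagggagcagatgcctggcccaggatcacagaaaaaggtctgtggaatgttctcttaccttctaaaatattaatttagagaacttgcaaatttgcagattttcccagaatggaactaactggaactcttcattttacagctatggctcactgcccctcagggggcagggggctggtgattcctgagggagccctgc
Mirg: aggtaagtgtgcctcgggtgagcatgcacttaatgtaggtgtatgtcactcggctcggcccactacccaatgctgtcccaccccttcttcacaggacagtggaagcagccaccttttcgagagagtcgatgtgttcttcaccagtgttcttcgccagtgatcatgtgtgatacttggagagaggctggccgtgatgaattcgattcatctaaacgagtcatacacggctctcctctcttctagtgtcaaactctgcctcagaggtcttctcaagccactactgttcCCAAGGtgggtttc
The Mirg promoter holds 1 StyI site, CCAAGG at position 287 of the window, and those of Dlk1, Meg3 and Rian hold none. The other Meg3 entry, 12:109545148-109545447, also holds 1, CCAAGG at position 21. Of all 32851 mouse promoters in the table, 34.5% hold a StyI site. GC content lay between 49.3% at Rian and 55.7% at Dlk1.

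Total counts ran from 39051867 (HRS replicate 3) to 62928375 (Loop replicate 2), and 11185 to 23892 of them fell in the domain, with 25 to 1163 in each 10 kb bin of each library. Of the 738 fragments, 38 had no count in any library; these had a median length of 85 bp against 373 bp for the domain. Intervals and standard errors cover these libraries only, and tags carry no molecular identifiers. Both libraries numbered 3 stand apart: their share of counts on chromosome 11 was 1.32 (HRS) and 1.21 times (Loop) the mean of the inputs, against 1.0 to 1.06 times in the other 4 fraction libraries. On chromosome 12 the share was 0.899 times in HRS replicate 3 and 0.962 times in Loop replicate 3, against 0.95 to 0.993 in the other 4, so there only the HRS library lies outside their range. The Loop libraries also hold more very short fragments, with 16.1% to 20.1% of their counts on fragments of 43 to 81 bp against 6.25% to 8.1% in HRS and input. Comparisons with Loop were therefore also made after correction for fragment length. For this, each fragment's count summed over the 9 libraries was multiplied by a library's share of all counts in its length class, of 20. These products, added over a bin, are its expected count. The expected count thus holds the observed counts of the same fragments, so a high level in 1 group lowers observed over expected in the others.

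Taken as a whole, the domain was not called in any comparison of HRS, Loop and input, while stretches higher in HRS and stretches lower in HRS lay side by side in it. Levels are in CPM, a library's count in a region for each 1000000 of its total count. Over the 450 kb, HRS replicates 1, 2 and 3 had 349, 373 and 286 CPM, Loop 371, 380 and 357, and input 345, 363 and 361. The HRS values overlap both other groups, with replicate 3 below all of them. By edgeR's quasi-likelihood test, HRS over Loop had a log2 ratio of -0.09 ± 0.09 (SE, adjusted p = 0.425), HRS over input 0.02 ± 0.10 (adjusted p = 0.898) and Loop over input 0.08 ± 0.05 (adjusted p = 0.221), from a fit to all 450 kb windows of the genome. In that fit 46.5% of windows were called (adjusted p under 0.05) for HRS over Loop, 46.8% for HRS over input and 7.81% for Loop over input, so the domain belongs to the windows without a call in each. Its ratio of HRS over Loop stood at percentile 36.8 of all windows and at percentile 42.0 of the 262 on chromosome 12, but at percentiles 66.6 and 73.7 with length correction. The sign of the whole-domain ratio turned with length correction in all 3 comparisons (0.09, -0.01 and -0.10), with no call (adjusted p = 0.414, 0.939 and 0.74).

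Along the domain, HRS was lower than Loop around Dlk1 and even with it at Meg3. It was higher in 7 of the 10 bins from 140 to 240 kb and in 5 of the 10 from 240 to 340 kb. Toward the end it was lower again. Of the 45 bins of 10 kb, 12 (26.7%) were higher in HRS than in Loop and 15 (33.3%) lower, against 17.8% and 20.4% of the 245823 bins tested over the genome. Positions in kb count from the start of the domain. In the upstream flank 0 of 30 bins were higher and 17 lower, and in the downstream flank 0 and 23. After length correction 14 domain bins were higher and 7 lower, against 15.0% and 8.43% of bins in the genome. Counts of higher bins changed when 1 library was left out, and no genome share is given here for those fits. A fall in this domain is thus not told apart from a fall across the genome. With 1 left out there were 5 (without HRS replicate 2) to 12, with 6 without HRS replicate 1, Loop replicate 1 or Loop replicate 3, and 8 without Loop replicate 2. With length correction the same step gave 7 (without Loop replicate 1 or Loop replicate 3) to 18 (without HRS replicate 3) higher and 1 (without Loop replicate 2) to 9 lower, with 3 without HRS replicate 1 or Loop replicate 1 and 4 without Loop replicate 3, and 8 higher without HRS replicate 1 or HRS replicate 2.

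**Figure D1:**
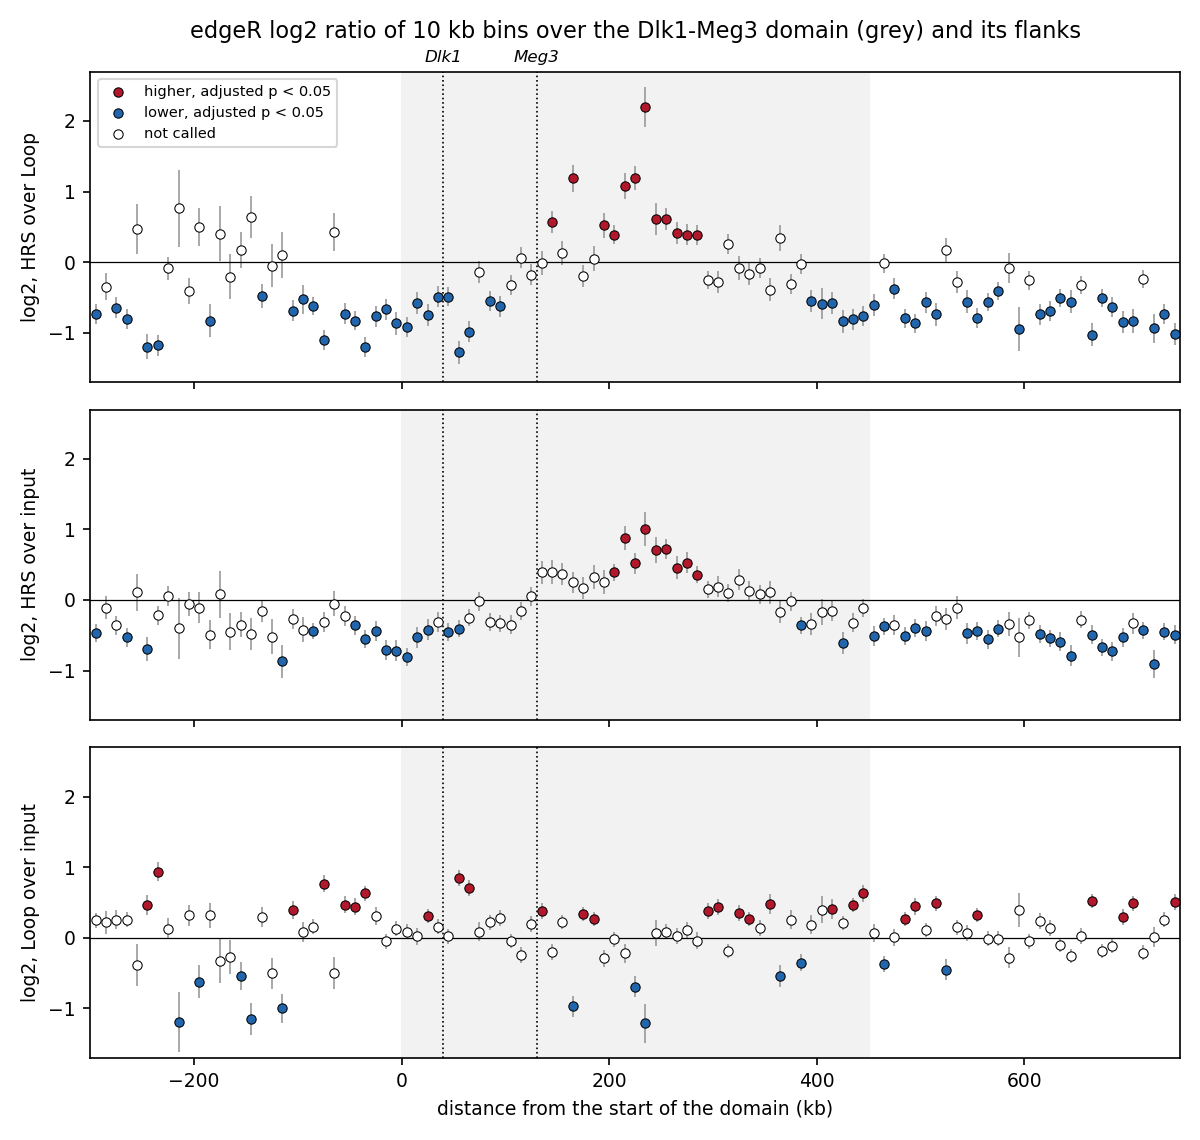
edgeR log2 ratio with its standard error for each 10 kb bin (vertical axes) against the distance from the start of the domain in kb (horizontal axis), for HRS over Loop, HRS over input and Loop over input; filled points have an adjusted p under 0.05, the grey area is the domain and dotted lines mark the approximate positions of Dlk1 and Meg3. In the upper panel the 12 higher bins of HRS over Loop all lie after Meg3, and the called bins of both flanks are all lower.

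Against input, HRS was likewise low around Dlk1, high after Meg3 and low in called bins near the end. This comparison shares its HRS libraries with the comparison above and is not independent of it. Here 9 bins were higher in HRS and 7 lower, against 15.2% and 9.16% of bins in the genome, and with length correction 9 and 10, against 15.5% and 9.72%. The 9 higher bins were 20.0% of the domain, close to the background share. All 9 adjoin one another from 200 to 290 kb. Without HRS replicate 3 there were 18 higher and 10 lower; without any other single library there were 4 to 6 higher and 2 to 5 lower. Between Loop and input, 14 bins were higher in Loop and 5 lower, against 21.5% and 18.0% of the genome's bins. None was called in either direction once fragment length was corrected (edgeR; 0.266% and 0.0782% of bins in the genome were called higher and lower; at an unadjusted p under 0.05 there were 0 higher and 9 lower in the domain, and DESeq2 was not run with this correction). The leave-out range for Loop over input was 9 to 18 higher bins, with 9 without input replicate 2 or 3.

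Before and at Dlk1 the HRS fraction was low. In the 30 kb before the Dlk1 window, HRS replicates had 21.4, 25.5 and 24.1 CPM, Loop 39.2, 35.6 and 39.9, and input 35.5, 38.6 and 39.2. All 3 HRS libraries lie below all 6 others, and all 3 bins were lower in HRS than in Loop, than in input, and in both comparisons after length correction. The first bin, 110650001 to 110660000, had 3.73, 5.07 and 3.79 CPM in HRS, 7.65, 7.88 and 7.95 in Loop and 7.54, 7.63 and 9.02 in input, a log2 ratio of -0.92 ± 0.14 over Loop (adjusted p = 4.87e-05) and -0.81 ± 0.13 over input (adjusted p = 0.000245). These low bins continue a stretch that begins in the upstream flank. There, 13 adjoining bins from 110590001 to 110720000, over 130 kb and across the Dlk1 position, were lower in HRS than in Loop, with a mean log2 ratio of -0.81. Of these 13, 9 were called after length correction, and 5, 5, 4 and 6 when HRS replicate 1, Loop replicate 1, Loop replicate 2 or Loop replicate 3 was also left out.

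In the 20 kb window around Dlk1 the level was 13.3, 14.8 and 14.6 CPM in HRS, 19.8, 21.1 and 18.0 in Loop and 20.4, 19.7 and 19.7 in input. HRS lies below both other groups with no overlap, and Loop and input overlap. The bin before the Dlk1 position (110680001 to 110690000) had a log2 ratio of HRS over Loop of -0.49 ± 0.15 (adjusted p = 0.0154), and the bin after it (110690001 to 110700000) one of -0.49 ± 0.14 (adjusted p = 0.00928). Neither was called after length correction (-0.24 and -0.22, adjusted p = 0.181 and 0.228). Leaving out HRS replicate 1 also ended both calls (adjusted p = 0.0826 and 0.0662), and leaving out Loop replicate 2 ended the first (0.0964). Against input the second bin was lower (-0.45 ± 0.13, adjusted p = 0.0152), a call lost without HRS replicate 1, input replicate 1 or input replicate 3 (adjusted p = 0.0844, 0.0537 and 0.0845), and the first was not called (-0.31 ± 0.14, adjusted p = 0.132; 0.0091 without HRS replicate 3).

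Between Dlk1 and Meg3, where the control region of the cluster is known to lie, HRS was again low. The 70 kb had 45.2, 44.8 and 41.1 CPM in HRS, 64.8, 70.9 and 59.2 in Loop and 57.2, 58.5 and 58.9 in input, with every HRS library below all others. Of 7 bins, 4 were lower in HRS than in Loop and 1 lower than in input, and after length correction 2 and 4. The call over input, at 110700001 (adjusted p = 0.0203), was lost without HRS replicate 2 or any 1 input (adjusted p = 0.0613 to 0.0737). The corrected call over input at 110710001 (adjusted p = 0.0468) was lost without any library other than HRS replicate 2 (0.0729 to 0.167). The lowest uncorrected ratio of HRS over Loop in the domain was here, at 110700001 to 110710000, just after the Dlk1 window: 6.4, 5.6 and 5.38 CPM in HRS, 12.8, 16.0 and 12.6 in Loop and 8.49, 8.2 and 8.57 in input, a log2 ratio of -1.28 ± 0.16 (adjusted p = 3.7e-06). Its 14 fragments had a median length of 281.5 bp, the Loop level was also above input (log2 0.85 ± 0.11, adjusted p = 5.43e-06; -0.05 after length correction), and the corrected ratio of HRS over Loop was -0.46 ± 0.12 (adjusted p = 0.0117; 0.072 without Loop replicate 2). Once corrected it was no longer the lowest: 110650001 stood at -0.68 and 111070001 at -0.57. The next bin, 110710001 to 110720000, had -0.99 ± 0.15 (adjusted p = 2.82e-05) and -0.40 ± 0.12 once corrected (adjusted p = 0.0292; 0.0549 to 0.143 without HRS replicate 1, Loop replicate 1 or Loop replicate 2). In the last bin before the Meg3 window, from 110 to 120 kb, the log2 ratio was 0.06.

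At Meg3, HRS replicates 1 and 2 were slightly above Loop and further above input, while replicate 3 was below both. The 20 kb window had 28.8, 28.1 and 21.5 CPM in HRS, 27.2, 26.5 and 27.5 in Loop and 23.2, 25.3 and 23.6 in input. The bin before the Meg3 position (110770001 to 110780000) gave a log2 ratio of HRS over Loop of -0.18 ± 0.15 (adjusted p = 0.365) and the bin after it (110780001 to 110790000) one of -0.02 ± 0.17 (adjusted p = 0.953). The second holds 27 fragments of median length 201 bp. With length correction it was higher in HRS (0.48 ± 0.14, adjusted p = 0.0224), but that call was lost when any library other than HRS replicate 3 was left out (adjusted p = 0.0694 to 0.137). Against input neither bin was called (0.05 and 0.39, adjusted p = 0.852 and 0.0862). The second was called higher by DESeq2 (adjusted p = 0.0241), in the fit of all 9 libraries (0.0385) and without HRS replicate 3 (0.51, adjusted p = 4.02e-05).

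The highest HRS levels followed the Meg3 window. The known gene order puts Rtl1, Rian and Mirg after Meg3, but no gene body was placed in mm9. The levels below are therefore not assigned to any of these genes, nor parted from the body of Meg3. In the first 100 kb after the Meg3 window, HRS replicates had 96.8, 107 and 67.5 CPM, Loop 72.4, 72.9 and 66.3, and input 75.0, 76.8 and 77.1. In the second 100 kb they had 98.1, 108 and 78.2 in HRS, 86.2, 90.7 and 86.1 in Loop and 80.3, 83.6 and 85.9 in input. Replicates 1 and 2 lie above all Loop and input libraries in both stretches, and replicate 3 lies below all 3 inputs in both. Of 10 bins each, 7 and 5 were higher in HRS than in Loop (8 and 5 after length correction) and 4 and 5 higher than in input, and none was lower in either comparison.

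**Figure D2:**
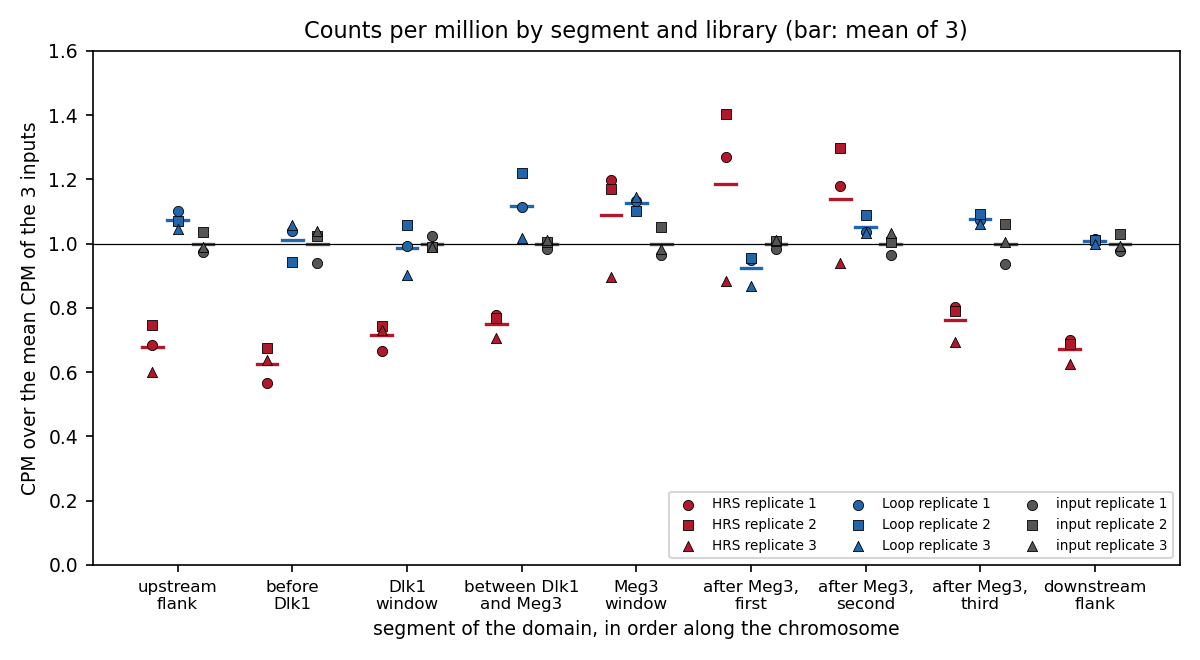
CPM of each library in the flanks and the 7 segments of the domain, divided by the mean of the 3 inputs (vertical axis), in order along the chromosome (horizontal axis); symbols are replicates and bars the mean of 3. HRS replicates 1 and 2 are above 1 from the Meg3 window through the second 100 kb after it, HRS replicate 3 is below 1 throughout, and all HRS libraries are below 1 in the other segments.

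The longest stretch higher in HRS was 110840001 to 110940000, 10 adjoining bins over 100 kb, from 190 to 290 kb of the domain. Its level was 71.7, 81.5 and 49.8 CPM in HRS, 45.5, 46.2 and 40.2 in Loop and 50.0, 51.5 and 52.0 in input. HRS lies above Loop without overlap, and HRS replicate 3 lies just below the inputs. The mean log2 ratio over Loop was 0.78, or 0.73 with length correction, under which the same 10 bins were called (6 to 8 with any library other than HRS replicate 3 also left out). Each single library left out in turn, except HRS replicate 3, lowered the number called from 10 to 4 (without HRS replicate 1 or 2, or Loop replicate 1 or 3) or 7 (without Loop replicate 2). The part from 110850001 to 110940000 was also higher than input, with 9 adjoining bins at a mean log2 ratio of 0.62. With single libraries other than HRS replicate 3 left out, 4 to 6 of the 9 were called, as were 4 under scaling by library totals. With length correction 4 further adjoining bins were called between the Meg3 position and this stretch, 110780001 to 110820000, at a mean log2 ratio of 0.55. Of the 4, 1 or 2 were called when any library other than HRS replicate 3 was also left out.

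The bin with the largest ratio was 110880001 to 110890000. Its counts were 123, 138 and 53 in HRS (2.39, 2.63 and 1.36 CPM), 32, 27 and 25 in Loop (0.509, 0.429 and 0.426 CPM) and 50, 68 and 82 in input (0.804, 1.20 and 1.49 CPM). HRS lies above Loop in every library, and its replicate 3 lies within the range of the inputs. The ratio over Loop was 4.58-fold (log2 2.20 ± 0.28, adjusted p = 6.53e-06) and over input 2.02-fold (log2 1.01 ± 0.24, adjusted p = 0.0041). This bin has only 5 fragments, of median length 2560 bp, so it is thinly read and long. Loop was below input there (log2 -1.21 ± 0.28, adjusted p = 0.00174), though not after length correction (-0.44, adjusted p = 0.584), and the corrected ratio of HRS over Loop was 1.54 ± 0.25 (2.9-fold, adjusted p = 0.0005). Its calls of HRS over Loop and over input held in every alternative run.

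Next to it, 110870001 to 110880000 had 5.57, 6.94 and 4.1 CPM in HRS, 2.53, 2.75 and 1.86 in Loop and 4.68, 4.12 and 3.82 in input. The ratio over Loop was 2.29-fold (log2 1.19 ± 0.17, adjusted p = 2.5e-05; 0.77 with length correction, adjusted p = 0.00252) and over input 1.44-fold (log2 0.52 ± 0.15, adjusted p = 0.0142; 0.0913, 0.063 and 0.0906 without HRS replicate 2, input replicate 2 or input replicate 3). The bin 110860001 to 110870000 had 7.82, 8.67 and 4.1 CPM in HRS against 3.36, 3.4 and 2.79 in Loop and 4.17, 4.15 and 3.88 in input, 2.12-fold over Loop (log2 1.08 ± 0.18, adjusted p = 0.000113) and 1.85-fold over input (log2 0.88 ± 0.17, adjusted p = 0.00102). Both its calls held in every alternative, and its ratio was nearly the same with length correction (1.03 over Loop), its fragments having a median length of 384 bp. In 110900001 to 110910000, HRS had 10.1, 10.7 and 6.68 CPM, Loop 5.96, 5.9 and 5.81 and input 6.08, 5.88 and 6.19, so that every HRS library lies above all 6 others. The ratio there was 1.52-fold over Loop (log2 0.61 ± 0.15, adjusted p = 0.00304; 0.62 with length correction, adjusted p = 0.0096, or 0.0618 without Loop replicate 3 as well) and 1.65-fold over input (log2 0.72 ± 0.14, adjusted p = 0.00111).

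Closer to Meg3, the bin 110810001 to 110820000 was higher in HRS than in Loop but not than in input. HRS had 5.07, 4.77 and 2.84 CPM, Loop 2.05, 1.95 and 1.45 and input 3.99, 3.64 and 4.06. The ratio over Loop was 2.28-fold (log2 1.19 ± 0.19, adjusted p = 6.5e-05), while HRS was not called against input (log2 0.25 ± 0.15, adjusted p = 0.251; 0.00714 without HRS replicate 3) and Loop was below input (log2 -0.97 ± 0.15, adjusted p = 4.26e-05). Its 8 fragments have a median length of 1008.5 bp. With length correction the ratio of HRS over Loop was 0.63 ± 0.16 (adjusted p = 0.0119; 0.0684 and 0.0623 without HRS replicate 1 or Loop replicate 1) and that of Loop over input -0.28 (adjusted p = 0.467).

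Toward the end of the domain HRS was low again. The last 110 kb had 45.5, 44.8 and 39.4 CPM in HRS, 60.9, 61.9 and 60.1 in Loop and 53.1, 60.1 and 56.9 in input, with HRS below both groups and no overlap. Of 11 bins, 6 were lower in HRS than in Loop, 2 after length correction, and 2 were lower than in input. The 7 adjoining bins from 111040001 to 111110000, which cross into the downstream flank, were lower than in Loop with a mean log2 ratio of -0.68. Of them 3 were called after length correction, and 0 to 2 with any 1 library also left out (0 without Loop replicate 2). Within them, 111070001 to 111080000 had 8.71, 9.78 and 6.89 CPM in HRS, 14.7, 14.4 and 15.5 in Loop and 13.0, 14.4 and 14.9 in input, with log2 ratios of -0.84 ± 0.16 over Loop (adjusted p = 0.000284; -0.57 with length correction, adjusted p = 0.00701, or 0.0513 without Loop replicate 2 as well) and -0.61 ± 0.15 over input (adjusted p = 0.00528). The bin after it, 111080001 to 111090000, had -0.81 ± 0.15 over Loop (adjusted p = 0.000198; -0.37 with length correction, adjusted p = 0.0331, not called without any 1 library except HRS replicate 3) and -0.32 ± 0.13 over input (adjusted p = 0.08). Over input it was called lower with length correction (adjusted p = 0.0364), with library totals (0.00589) and without HRS replicate 3 (0.00281).

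Setting the domain against its own flanks needs no scaling between libraries and places replicate 3 beside the others. The count of the domain was 1.38, 1.45 and 1.28 times that of both flanks together in HRS, 0.976, 1.01 and 0.968 times in Loop and 0.97, 0.965 and 0.999 times in input. All 3 HRS libraries lie above all 6 others, and Loop and input overlap. The difference was 0.47 on the log2 scale (1.38-fold) for HRS over Loop and 0.48 (1.4-fold) for HRS over input, each with an exact two-sided permutation p = 0.1, the smallest that 3 libraries against 3 can give (0.15 adjusted over 3 comparisons; with HRS and Loop paired by number, exact permutation p = 0.25), and 0.01 for Loop over input (exact permutation p = 0.6). With length correction the differences were 0.50, 0.48 and -0.02. This measure also moves with the flanks themselves: both flanks together had 254, 258 and 224 CPM in HRS against 369 to 380 in Loop and 356 to 376 in input, so HRS in the flanks stood at 0.655 times Loop and 0.673 times input.

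By segment, a choice added after the data were seen, the difference of HRS over Loop against the flanks was 0.95 (1.93-fold) in the first 100 kb after the Meg3 window, 0.71 (1.64-fold) in the second and 0.55 (1.46-fold) in the Meg3 window itself. In the first of these the count over that of the flanks was 0.382, 0.415 and 0.301 in HRS, 0.191, 0.194 and 0.18 in Loop and 0.211, 0.204 and 0.213 in input, so replicate 3 too lies above Loop and input. In the Dlk1 window the same ratio was 0.0523, 0.0572 and 0.0652 in HRS and 0.0488 to 0.0563 in Loop, which overlap, with a difference of 0.15 (exact permutation p = 0.2), and before Dlk1 the difference was -0.08 (exact permutation p = 0.6). It was 0.04 between Dlk1 and Meg3 (exact permutation p = 0.6) and 0.11 in the last 110 kb. With length correction the differences in order along the domain were -0.09, 0.16, 0.17, 0.75, 0.87, 0.73 and 0.15, and HRS and Loop then did not overlap between Dlk1 and Meg3 either (exact permutation p = 0.1). Without correction HRS and Loop did not overlap in the Meg3 window and in the 3 segments after it, each with exact permutation p = 0.1 (0.175 adjusted over 21 tests), which no segment could go below.

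**Figure D3:**
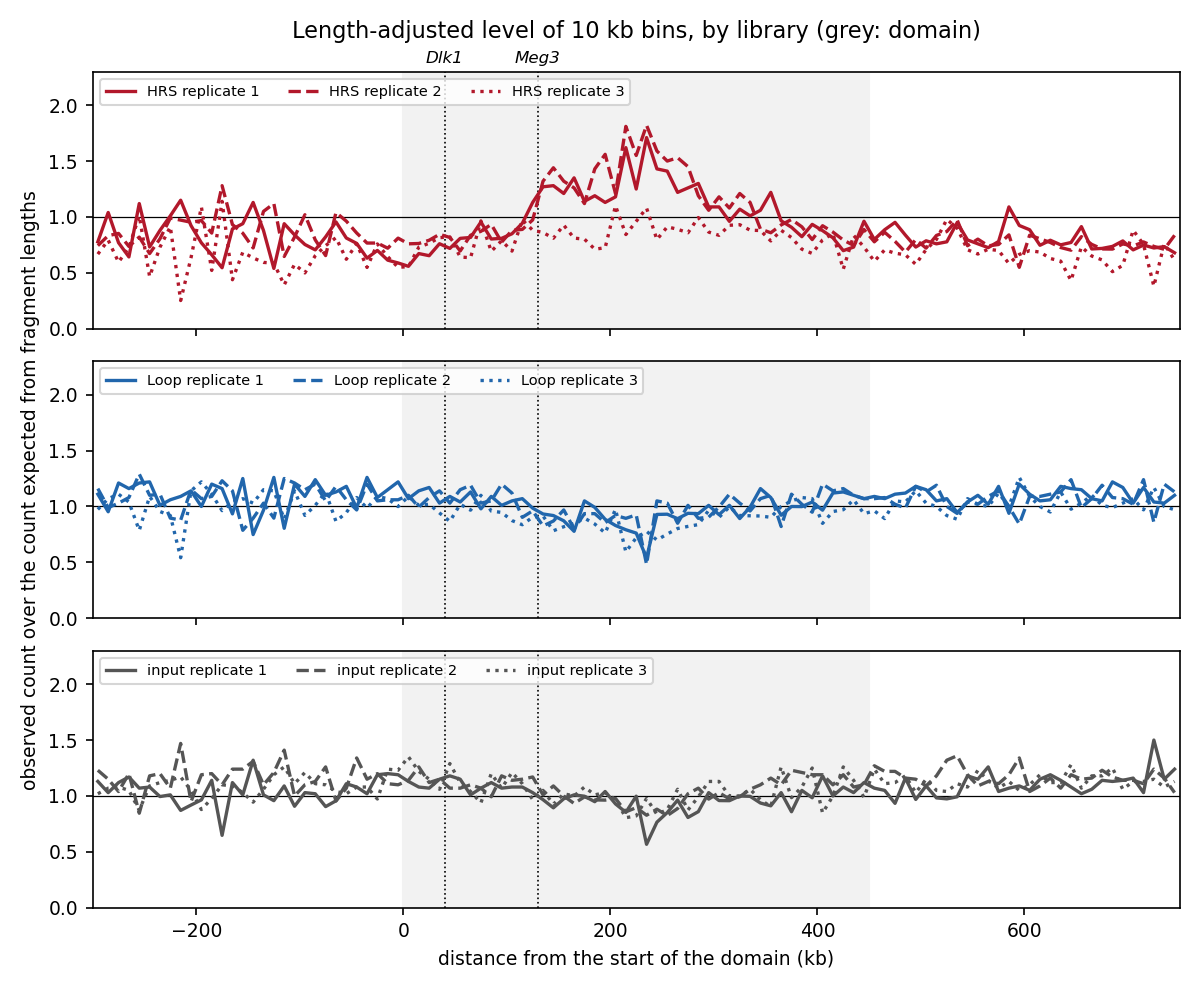
Observed count divided by the count expected from fragment lengths and the pooled counts of the 9 libraries (vertical axes), for each 10 kb bin. The horizontal axis is the distance from the start of the domain in kb, with a panel each for HRS, Loop and input and a line for each replicate. The panels are not independent, since a high HRS level lowers the values of Loop and input. HRS replicates 1 and 2 are highest after Meg3, at 1.71 and 1.82 in the bin from 230 to 240 kb, where HRS replicate 3 is at 1.08 and Loop at 0.54, 0.483 and 0.778.

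HRS replicate 3 rose less after Meg3 than its partners, and not in the same bins throughout. Its observed count over that expected from fragment lengths and pooled counts was 0.856 in the first 100 kb after the Meg3 window and 0.677 in the flanks. The same values were 1.24 and 0.777 in replicate 1 and 1.37 and 0.793 in replicate 2. In the bins from 180 to 200 kb it was 0.712 and 0.725, where the other HRS libraries had 1.13 to 1.56, and from 110 to 120 kb, before Meg3, it was 0.974 against their 0.944 and 0.889. Loop stood at 0.828 to 0.917 in the 100 kb after the Meg3 window and 1.03 to 1.10 in the flanks. Whether the raised shares of replicate 3 on chromosomes 8 and 11 bear on its level here was not tested.

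At single fragments higher calls again lay at and after Meg3, and calls differed with fragment length. Of the 738 fragments, 564 had enough counts to be tested for HRS over Loop; 45 were higher (7.98%) and 108 lower (19.1%), against 7.78% and 15.0% of tested fragments in the genome. Of the 45, 44 lie in the Meg3 window or the 200 kb after it. Of 175 tested fragments up to 200 bp, 99 were lower and 0 higher, and of 389 longer ones 45 were higher and 9 lower. Genome shares for these length classes are not given here, so the counts are not read as particular to the domain. Length correction left 11 higher and 8 lower, against 4.22% and 1.40% in the genome, so at this scale the domain's shares (1.95% and 1.42%) were not above the background. Without HRS replicate 1 or 2, or Loop replicate 1 or 3, there were 16 to 27 higher fragments. Fewer fragments were called against input: 14 of 604 higher and 19 lower, against 4.57% and 1.74% in the genome. Without HRS replicate 3 there were 42 higher and 24 lower, and without any other single library 2 to 7 higher. The lower count was 3 to 4 without any 1 input and 12 without HRS replicate 1. Between Loop and input, 135 of 601 were higher and 45 lower, against 18.7% and 4.23% in the genome, and 4 and 2 after length correction, against 0.625% and 0.12% in the genome. Without any 1 input the lower count was 14 to 23.

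On either side of 200 bp the ratio was higher in the Meg3 window and the 200 kb after it than in the rest of the domain. That rest includes the last 110 kb, which also lies after Meg3. The split follows the segments where HRS was high in these same data, so the contrast is no separate support for them. Among fragments up to 200 bp the median log2 ratio of HRS over Loop was -0.71 in the Meg3 window and the 200 kb after it and -1.48 in the rest of the domain, and among longer ones 0.75 and -0.12. These are medians of the fragments that passed the count filter and are given as a description. With length correction they were 0.37 and -0.39 for the short and 0.42 and -0.30 for the long fragments, and over all tested fragments 242 of 297 in the first stretch and 62 of 267 in the rest had a ratio above 0.

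**Figure D4:**
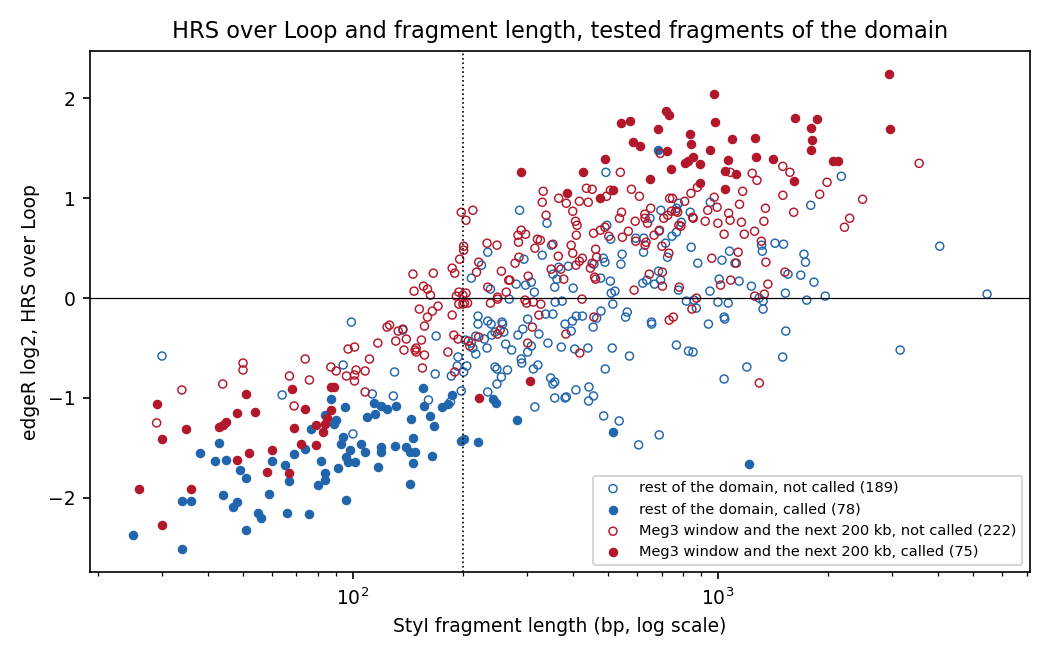
edgeR log2 ratio of HRS over Loop (vertical axis) against fragment length in bp on a log scale (horizontal axis) for the 564 tested fragments of the domain; red marks the Meg3 window and the next 200 kb, blue the rest, filled symbols are called and the dotted line is at 200 bp. The ratio is higher at longer fragments in both colours, and the median of the red points lies above that of the blue ones on either side of 200 bp, with wide overlap. Of 267 blue points 77 are above 0, as are 195 of 297 red ones.

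The single fragments with the largest changes were picked by their ratio in these same data, so they are examples and no separate support. The fragment 110844574 to 110845296 (722 bp) had 48, 83 and 24 counts in HRS, 25, 17 and 4 in Loop and 60, 35 and 38 in input, 3.67-fold over Loop (log2 1.87 ± 0.43, adjusted p = 0.000617; 1.5 with length correction, adjusted p = 0.018) and not called over input (log2 0.57 ± 0.30, adjusted p = 0.282; 0.0481 without HRS replicate 3). The fragment 110889120 to 110889854 (734 bp) had 41, 76 and 23 counts in HRS, 15, 15 and 12 in Loop and 15, 27 and 13 in input. It was higher over Loop (3.56-fold, log2 1.83 ± 0.42, adjusted p = 0.000589; 1.41 with length correction, adjusted p = 0.0207) and, alone among the 9 of the 10 named fragments tested there, over input (3.21-fold, log2 1.68 ± 0.35, adjusted p = 0.00352; 0.0591 without input replicate 3). In the Meg3 window, 110774893 to 110776759 (1866 bp) had 28, 25 and 9 counts in HRS, 6, 9 and 4 in Loop and 26, 22 and 15 in input, 3.46-fold over Loop (log2 1.79 ± 0.56, adjusted p = 0.0129) with no call over input (0.33, adjusted p = 0.675) or after length correction (1.25, adjusted p = 0.138). Leaving out HRS replicate 1, HRS replicate 2 or Loop replicate 1 ended that call (adjusted p = 0.0993, 0.0657 and 0.0723). The other two named higher fragments, 110813729 to 110815356 (1627 bp) and 110911255 to 110911830 (575 bp), were 3.48-fold and 3.42-fold over Loop (log2 1.24 and 1.40 with length correction, adjusted p = 0.118 and 0.0393). The first lost its call with length correction, and also without Loop replicate 1 (adjusted p = 0.0737).

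The 5 named lower fragments were all very short, 25 to 56 bp. That with the smallest adjusted p was 110701788 to 110701839 (51 bp), just after the Dlk1 window, with 48, 31 and 18 counts in HRS, 162, 199 and 166 in Loop and 68, 60 and 55 in input. HRS was 5.0-fold below Loop (log2 -2.32 ± 0.34, adjusted p = 8.8e-07) and not called against input (log2 -0.55 ± 0.29, adjusted p = 0.269), while Loop was 3.58-fold above input (log2 1.84 ± 0.27, adjusted p = 3.62e-08). The other 4, at 111074946, 110754021, 110959835 and 110654822, had log2 ratios of HRS over Loop of -2.51 to -2.20. Of these, 110959835 (-2.27) lies 309.85 kb into the domain, within the 200 kb after the Meg3 window. None of the 5 was called after length correction (adjusted p = 0.0599 to 0.501).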

How the data were processed

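Nuclear DNA fractions and input DNA of E14Tg2a cells were sequenced as short tags next to StyI sites (9 libraries, 3 in each group). The deposited tables give, for each StyI fragment, a whole-number count, not normalized by the authors. The submitters' processing notes name CASAVA 1.8.2 and mm9. For the aligner, and how it treated tags matching several sites: not given in the sources used here. Left out were 21 intervals, 1 at each chromosome end. The members and lists were chosen with earlier results of these data known.

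Fragments were assigned by midpoint to 10 kb bins, to 450 kb windows in phase with the domain, or kept single, and the deposited counts were tested genome-wide with edgeR 4.0.16 (R 4.3.3; TMM scaling, minimum count 10, quasi-likelihood test, Benjamini-Hochberg adjustment, threshold 0.05) on the 6 libraries compared. The domain over its flanks was tested by an exact two-sided permutation over libraries. The main edgeR fit of 10 kb bins for HRS over Loop was tested on simulated counts. That simulation did not cover length correction, single fragments, 450 kb windows, DESeq2, the replicate block or the permutation tests. Length correction used an offset built from the expected count. This was each fragment's count summed over the 9 libraries, times the library's share of the counts in its length class (20 classes). Alternatives were other scalings, DESeq2 1.42.0, no filter, a threshold of 0.01, 20 kb bins, each library left out and the replicate number as a block; length correction with a library left out and segments against flanks were added after seeing the data. Named were the bins at the Dlk1 and Meg3 positions, the 5 called bins and 5 called fragments in each direction with the largest ratio of HRS over Loop (fragments with the same sign in 3 pairs and a mean count of at least 10), and runs of at least 3 adjoining called bins.

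HRS and Loop libraries share replicate numbers, and their deviations from the group means over 10 kb bins correlated at 0.156, 0.109 and 0.23 for equal numbers (a description across bins) against 0.124 or less for unequal ones. Each being over 0.1, the numbers were taken to pair the libraries in the replicate block and the paired test. The unequal pair of HRS replicate 2 and Loop replicate 1 (0.124) also passed 0.1 and exceeded the 0.109 of replicate 2. Pairing is thus not shown for replicate 2. The main fits did not use pairing. No 2 libraries were identical. Totals of 39051867 to 62928375 counts per library limit the precision.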

Additional observations from a re-analysis of the deposited data

How the results depend on the processing

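Of 1384 values recomputed under alternatives, 1159 kept their direction and side of the threshold, or, for counts of bins and fragments, stayed within 1.5 times of the value reported. In the 10 kb bins, a threshold of 0.01 gave 6 higher for HRS over Loop, 4 higher and 2 lower for HRS over input and 8 higher and 3 lower for Loop over input. Length correction gave 7 lower for HRS over Loop, also with the replicate block, and 0 higher and 0 lower for Loop over input. Library totals gave 4 higher and 14 lower for HRS over input and 7 higher and 10 lower for Loop over input, and a fit of all 9 libraries gave 9 higher for Loop over input. With 20 kb bins 4.55% of the bins of the domain were lower in Loop than in input, against 11.1% of its 10 kb bins. The genome share at 20 kb is not given here. Among fragments, length correction gave 11 higher and 8 lower for HRS over Loop and 4 higher and 2 lower for Loop over input; library totals gave 80 higher for HRS over Loop, 8 higher for HRS over input and 166 lower for Loop over input; the threshold of 0.01 gave 12 higher for HRS over Loop, 3 higher and 4 lower for HRS over input and 15 lower for Loop over input. DESeq2, median-of-ratios scaling and no filter on low counts moved none of the counts computed with them by over 1.5 times. Genome shares are given here only for the main and length-corrected fits. Counts under the other settings, here and in the next paragraph, are thus not read as particular to the domain. The cause of the changes was not tested.

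Leaving out 1 library at a time gave 5 to 12 higher bins for HRS over Loop, 4 to 18 higher and 2 to 10 lower for HRS over input and 9 to 18 higher for Loop over input. With length correction (added after seeing the data) it gave 7 to 18 higher and 1 to 9 lower for HRS over Loop and 5 to 16 higher and 4 to 10 lower for HRS over input. For fragments it gave 16 to 52 higher for HRS over Loop, 2 to 42 higher and 3 to 24 lower for HRS over input and 14 to 45 lower for Loop over input. With the replicate number as a replicate block, HRS over Loop had 12 higher and 17 lower bins and 48 higher and 116 lower fragments, and 15 and 7 bins with length correction; the domain over its flanks differed by 0.47 on the log2 scale in the paired test, as without pairing, with exact permutation p = 0.25 in place of 0.1; neither can reach 0.05 with 3 libraries a group. The replicate block on its own ended or turned no call.

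Some ratios changed sign. For the whole domain, called in none of these settings, they were HRS over Loop with length correction (0.09, also with the replicate block), HRS over input with length correction (-0.01), library totals (-0.08) or a library left out (-0.04 to 0.08), and Loop over input with length correction (-0.10). Against the flanks, Loop over input turned with the upstream flank only (-0.05), length correction (-0.02) or a library left out (-0.01 to 0.03), and, by segment with length correction, between Dlk1 and Meg3 (-0.02) and in the Meg3 window (-0.09). For Loop over input with length correction the bins 110700001, 110650001, 111070001, 110680001, 110690001, 110770001 and 110780001 had -0.05, -0.14, -0.11, -0.10, -0.24, -0.15 and -0.17, of which 110700001 and 110780001 were called higher without it, and the fragments 110889120, 110754021, 110959835 and 110654822 had 0.39, -1.03, -0.34 and -0.05, of which 110959835 and 110654822 were called higher without it. With library totals the bins 110900001, 110650001 and 110690001 had -0.04, -0.04 and -0.11. With a library left out, 110690001 ran from -0.04 to 0.09 and fragment 110889120 from -0.24 to 0.35, and with length correction as well 110860001 from -0.27 to 0.00, 110900001 from -0.01 to 0.20 and 111080001 from -0.02 to 0.05.

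At Meg3, bin 110770001 turned for HRS over Loop with length correction (0.19, and 0.18 with the replicate block) and for HRS over input with library totals (-0.08) or a library left out (-0.03 to 0.12, and -0.05 to 0.10 with length correction). Bin 110780001 turned for HRS over Loop with length correction (0.48, called; 0.47 with the replicate block, called), library totals (0.02), all 9 libraries (0.03), both libraries numbered 3 left out (0.19) or 1 library left out (-0.09 to 0.08). Depth limits single fragments most: for HRS over Loop 564 of the 738 had enough counts to be tested.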
